A study of Mus musculus with 18 samples.

Results

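The genes described here are 8 transcription factor genes that mark or pattern the deep layers of the cerebral cortex: Fezf2, Bcl11b, Tbr1, Sox5, Tle4, Foxp2, Bcl11a and Foxp1. They were chosen by name, and their consensus peaks of open chromatin were taken from each gene and the 100 kb on either side, with gene positions from RefSeq (GRCm38.p6, the assembly that mm10 names). They are 8 of 21774 protein-coding genes, and their loci held 493 of the 211682 peaks of the list. Of these, 20 lay within 1000 bp of an annotated start, 4 within 1000 bp of the 3′ end, 327 inside the genes away from both ends, and 142 in the flanks.

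Accessible DNA was mapped by ATAC-seq, an assay based on insertion of adapters by a transposase, in 18 samples of primary cortical neurons prepared from CD1 mouse embryos of embryonic day 14.5 to 15. All cultures received cytosine arabinoside at 2 µM against dividing cells, lentiviral short hairpin RNAs (shRNAs) on day 6, and were harvested on day 11. The shOpa1_shATF4 group (5 samples) had the Opa1 and the Atf4 shRNA, the shOpa1_shScrambled group (5) the Opa1 and a scrambled shRNA, the shCtrl_shATF4 group (3) a control and the Atf4 shRNA, and the shCtrl_shScrambled group (5) a control and a scrambled shRNA. The study asked where accessibility changes with Atf4 knockdown, both in normal cultures and after knockdown of Opa1, a fusion protein of the inner mitochondrial membrane. The deposited list is a single consensus over samples, in which neither samples nor groups nor read depths are told apart. Nothing below therefore compares the groups. The values have no replicates and no test, and they describe where peaks lay and how wide they were, not how accessible a site was in any one culture.

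Deep-layer neurons send axons out of the cortex, to the thalamus, brainstem and spinal cord, and their identities are set by transcription factors that activate their own programme and repress those of neighbouring layers. Fezf2 specifies subcerebral projection neurons and acts through Bcl11b, while Tbr1 and Sox5 promote corticothalamic and subplate identity and hold back the subcerebral programme. An accessible stretch at a gene's start usually marks its promoter, and accessible stretches inside or around developmental genes are often candidate enhancers, which a peak list alone cannot assign to a gene.

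Start peaks were found at a larger share of the marker genes of neurons than of those of glia or liver. All 10 neuronal marker genes had a start peak, against 2 of 5 astrocyte, 4 of 6 oligodendrocyte lineage, 2 of 5 microglia and 1 of 5 liver genes. The widest start peaks of the 10 neuronal genes were at Syp (2184 bp), Elavl4 (1887 bp) and Nefl (1721 bp). Of the glial lists, Mbp, the myelin basic protein gene, had the widest with 1804 bp, and Olig1 (1503 bp), Olig2 (1056 bp), Slc1a3 (845 bp), S100b (565 bp), Tmem119 (565 bp) and C1qa (557 bp) were among the others with one. For genes with no listed strand both outer ends were counted as starts, so a start peak may lie at the 3′ end. Nefl, Mbp, Olig1, Tmem119 and C1qa are such genes. The glial genes with no start peak were Gfap, Aqp4, Aldh1l1, Sox10, Mog, Aif1, Cx3cr1 and P2ry12. Peaks inside these genes, away from their ends, did not rank the lists in that order. Their median per 100 kb was 8.87 over neuronal, 23.7 over astrocyte, 18.5 over oligodendrocyte lineage, 2.24 over microglia and 6.45 over liver genes. A start peak was common, found in 70.0% of all protein-coding genes, and the part of other cells in the results below was not tested. Peaks scored below the list's ceiling of 1000, 1.53% of the whole list, numbered 7 among the 493 peaks, in Tle4 and its flank (3), Sox5 (2) and Foxp1 (2).

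RefSeq promoters, from 250 bases before to 50 after an annotated start, were matched by symbol for 7 of the 8 genes and gave 10 promoters. The 5 shown were picked for how base composition and peaks went together or apart. Tbr1 and the inner Foxp1 start were fully under a peak with few and with many CpG dinucleotides. The inner Tle4 start was rich in CpG with no peak, and the listed Sox5 start and Bcl11b were poor in CpG with no peak. All are from RefSeq, GRCm38.p6, written 5′ to 3′ on the gene's strand, with CpG dinucleotides in capitals. The Tbr1 promoter is chr2:61804203-61804502 on the plus strand. The others are on the minus strand: the inner Foxp1 promoter at chr6:99028249-99028548, the inner Tle4 promoter at chr19:14597164-14597463, the Sox5 promoter at chr6:143947057-143947356 and the Bcl11b promoter at chr12:108003365-108003664.
Tbr1: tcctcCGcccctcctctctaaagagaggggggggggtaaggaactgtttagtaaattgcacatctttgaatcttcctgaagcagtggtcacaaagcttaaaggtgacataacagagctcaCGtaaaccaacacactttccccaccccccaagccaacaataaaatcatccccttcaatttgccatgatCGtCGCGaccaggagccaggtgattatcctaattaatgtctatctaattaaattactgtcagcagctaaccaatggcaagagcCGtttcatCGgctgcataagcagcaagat
Foxp1 inner: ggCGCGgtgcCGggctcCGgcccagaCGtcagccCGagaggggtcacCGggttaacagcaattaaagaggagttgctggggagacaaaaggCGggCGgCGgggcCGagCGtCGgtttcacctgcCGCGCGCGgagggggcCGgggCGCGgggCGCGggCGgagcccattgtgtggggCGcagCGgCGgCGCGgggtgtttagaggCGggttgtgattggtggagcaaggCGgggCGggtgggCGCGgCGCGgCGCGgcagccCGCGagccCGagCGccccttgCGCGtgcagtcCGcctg
Tle4 inner: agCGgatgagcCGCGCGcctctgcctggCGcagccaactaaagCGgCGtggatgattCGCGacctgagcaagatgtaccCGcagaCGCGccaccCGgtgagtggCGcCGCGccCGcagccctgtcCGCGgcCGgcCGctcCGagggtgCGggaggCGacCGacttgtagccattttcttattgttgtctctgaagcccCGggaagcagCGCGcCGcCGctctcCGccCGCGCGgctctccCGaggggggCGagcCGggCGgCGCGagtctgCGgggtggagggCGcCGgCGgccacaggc
Sox5: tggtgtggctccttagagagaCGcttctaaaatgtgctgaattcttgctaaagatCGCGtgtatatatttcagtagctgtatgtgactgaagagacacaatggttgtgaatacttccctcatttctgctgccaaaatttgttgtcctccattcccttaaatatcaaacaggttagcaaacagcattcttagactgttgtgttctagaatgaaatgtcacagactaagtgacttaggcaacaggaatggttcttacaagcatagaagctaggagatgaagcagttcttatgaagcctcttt
Bcl11b: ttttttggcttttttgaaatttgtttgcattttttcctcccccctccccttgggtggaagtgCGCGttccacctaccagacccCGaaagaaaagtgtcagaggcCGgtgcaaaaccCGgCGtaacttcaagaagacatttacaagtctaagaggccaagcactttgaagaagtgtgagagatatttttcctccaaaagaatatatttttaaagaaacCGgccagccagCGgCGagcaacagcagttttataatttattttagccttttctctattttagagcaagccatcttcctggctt

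Of the 10 promoters, 7 had at least 1 base under a peak, against 62.9% of the 21263 promoters of protein-coding genes. The inner Foxp1 promoter had 44 CpG dinucleotides and a GC content of 75.3%, and all 300 bases lay under a peak of 1731 bp. The inner Tle4 promoter also had 44, with a GC content of 73.0%, and had no base under a peak. Among all promoters with 30 or more CpG dinucleotides, 98.5% (3234 of 3283) had a peak, so the inner Tle4 start belongs to a small remainder. Its nearest peak, of 1020 bp, began 485 bp away and covered all 300 bases of the gene's outer promoter, which had 28 CpG dinucleotides.

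Tbr1 stood at the other end of that relation. Its promoter had 7 CpG dinucleotides and a GC content of 46.0%, below the medians of 13 and 56.3% over all promoters, and all of its 300 bases lay under a peak of 2112 bp. The listed start, at 61804453, lies inside the gene, and the base composition at the outer end (61802863) was not measured. Of all promoters with 5 to 9 CpG dinucleotides, 42.7% had a peak. The middle Foxp1 promoter, with 5 CpG dinucleotides, was covered over 267 bases, and the outer one, with 13, over all 300. The promoters of Bcl11a (23 CpG dinucleotides) and Fezf2 (20) were also covered over 300 bases, and 96.8% of all promoters with 20 to 29 had a peak.

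The listed Sox5 promoter had 3 CpG dinucleotides, lay deep inside the gene, and was 814 bp from its nearest peak, while 11.6% of all promoters with 0 to 4 had a peak. The Bcl11b promoter, with 9, lay 120 bp from the nearest peak, which spanned the outer end of the gene. The 3 promoters without a peak thus had one within 1000 bp in each case, and Sox5 had a wide one at its outer end.

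**Figure D1:**
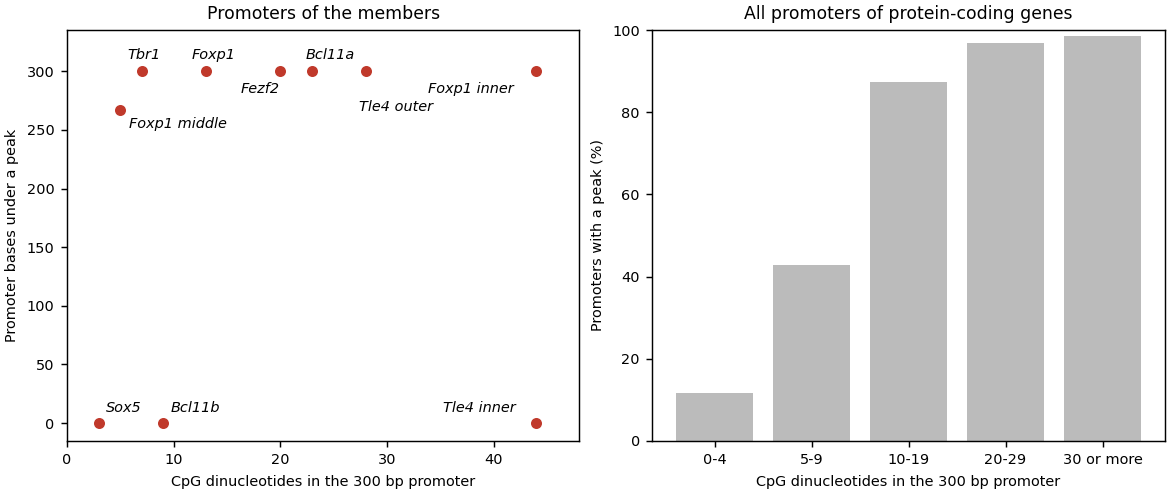
Left, the number of bases of each 300 bp RefSeq promoter that lay under a peak, against its number of CpG dinucleotides, for 10 promoters of 7 genes. Right, the percentage of all promoters of protein-coding genes with at least 1 base under a peak, in 5 bands of CpG number, from 11.6% to 98.5%. The inner Tle4 promoter sits at 0 bases with 44 CpG dinucleotides, and Tbr1 at 300 bases with 7.

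Short motifs were searched on both strands of the same promoters. GGGCGG, the GC box, was found in 7 of the 10, against 46.2% of all promoters. CCAAT was in 4, those of Tbr1, Bcl11a, the inner Foxp1 and the outer Tle4 start, against 38.2%. TATAAA was in 1, that of Bcl11b, against 12.6%. Of letters that factors related to the members bind, AACAAT of SOX proteins was in 3 (Tbr1, the middle Foxp1 and the inner Tle4 start, against 9.05%), TCACACC of T-box proteins in 1 (Bcl11a, against 3.68%), and TGTTTAC of forkhead proteins in 0, against 3.01%. TGANTCA of AP-1 was in 1 (Fezf2, against 6.99%). Neither TGATGNAAN, the element that ATF4 binds with C/EBP proteins, nor the cyclic AMP response element TGACGTCA was in any of the 10, against 3.58% and 2.23% of all promoters. These are matches of letters, with GGGCGG containing a CpG dinucleotide and so not independent of base composition.

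All 8 genes had a peak within 1000 bp of a start, as did 70.0% of protein-coding genes. Starts are those of the RefSeq promoters and the outermost 5′ end, or both outer ends for the 4282 protein-coding genes with no promoter entry, Foxp2 among them. In 6 of the 8 the widest was at least 1000 bp, against 45.6% of protein-coding genes. Tle4 with 1020 bp was the member just above that width and Fezf2 with 990 bp the one just below it. The median of the widest start peaks was 1482.5 bp, against 1148 bp over protein-coding genes that had a start peak. It depended on which starts were counted. Over the 7 members with a listed strand it was 1234 bp. With the outermost end alone it was 1052 bp, below 1148 bp, though the 1148 bp was not recomputed in that setting. By the widest single peak, the members fell into a wide set of 4, between 1731 and 2112 bp, and a set of 4 between 785 and 1234 bp on both sides of 1148 bp. Neighbouring peaks were not joined, and summed over all start peaks of a gene the order differed. The sums were 5069 bp at Foxp1, 3088 at Bcl11a, 2784 at Tbr1 and 2168 at Fezf2. They were 1865 at Foxp2, 1854 at Sox5, 1020 at Tle4 and 785 at Bcl11b. Such sums grow with the number of starts counted.

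The widest start peak belonged to Tbr1, the T-box factor of corticothalamic neurons. It ran over 2112 bp (chromosome 2, 61803817 to 61805928), wider than in 98.3% of other protein-coding genes, those without a start peak counted at 0. A peak of 423 bp spanned the outer end of the gene, and one of 249 bp lay between the pair. Foxp2, a forkhead factor of corticothalamic neurons whose human counterpart is known for a speech disorder, had 1 start peak, 1865 bp wide, at its lower-coordinate end (chromosome 6, 14900193 to 14902057). The tables used here list no strand for Foxp2. Its other end had no peak within 1000 bp.

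Sox5, a SOX factor that controls the sequence in which deep-layer neuron types form, had a single start peak of 1854 bp centred 26 bp from its outer end (chromosome 6, 144781335 to 144783188). Foxp1, a forkhead factor of projection neurons and a partner of Foxp2, had 6 peaks at 3 groups of starts. At its outer end lay peaks of 993, 796, 757 and 360 bp, at the middle start 1 of 432 bp, and at the inner start, 495 kb into the gene, the widest with 1731 bp (chromosome 6, 99027268 to 99028998). The widest Foxp1 peak was thus not at the far 5′ end but at the inner start.

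Bcl11a, a zinc-finger repressor of several cortical projection neuron types, had 4 start peaks. The widest, of 1234 bp (chromosome 11, 24080254 to 24081487), covered its annotated start, and one of 1084 bp lay at its outer end, 69 bp from the noncoding gene A830031A19Rik, so that this peak cannot be assigned to one gene of the pair. Tle4, a Groucho corepressor of corticothalamic neurons that works with Fezf2, had 1 of 1020 bp (chromosome 19, 14597949 to 14598968). Fezf2 had 3, of 990, 719 and 459 bp, which lay side by side (chromosome 14, 12344732 to 12347067). Bcl11b, the zinc-finger factor also called CTIP2, had 1 of 785 bp (chromosome 12, 108003785 to 108004569), the narrowest of the 8 and 0.684 times the median of genes with a start peak.

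**Figure D2:**
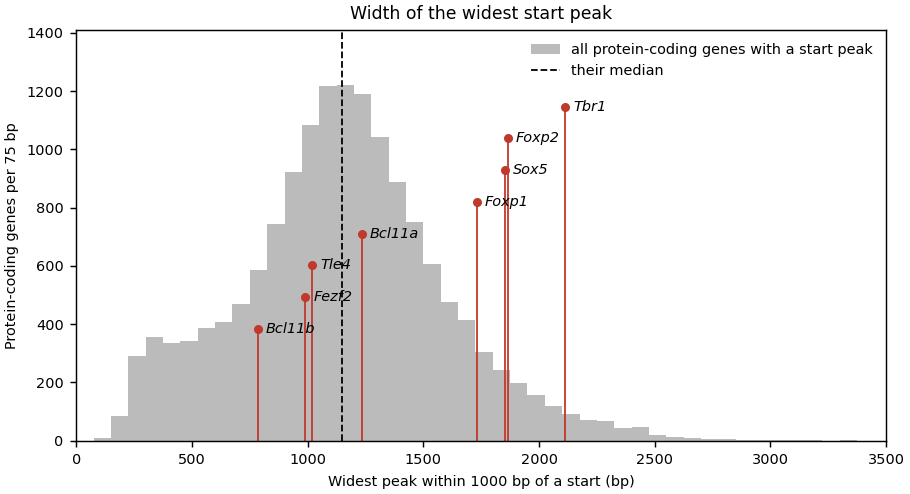
Width of the widest peak within 1000 bp of a start, in bp (x axis), for the 8 genes (red, heights staggered for legibility only) over the distribution of all protein-coding genes with a start peak (grey, genes per 75 bp bin; dashed line, their median of 1148 bp). Tbr1, Foxp2, Sox5 and Foxp1 lie to the right of the bulk, between 1731 and 2112 bp, and Bcl11b with 785 bp lies furthest to the left.

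Peaks at the 3′ end, counted where no start lay there, were found in 3 of the 7 genes with a listed strand, against 23.1% of such protein-coding genes. The widest, of 1462 bp, lay 800 bp beyond the end of Tbr1 (chromosome 2, 61814915 to 61816376), so that the 11.3 kb gene had a wide peak near its start, inside the gene, and another just beyond its 3′ end. Foxp1 had a 3′ peak of 639 bp, 151 bp beyond the gene, and Fezf2 had 2 of 412 and 244 bp. Bcl11b, Bcl11a, Sox5 and Tle4 had none within 1000 bp, and for Foxp2 the 3′ end is not known from the tables.

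Inside the genes, the 327 peaks were narrower, with a median of 395 bp, against 790.5 bp for the 20 start peaks. Of them 21 (6.42%) were at least 1000 bp wide, against 4.43% of all peaks inside protein-coding genes and away from their ends, whose median width was 412 bp, and 8.21% of all peaks of the list. Bcl11b held 9 of the 21, Sox5 7, Bcl11a and Foxp2 2 each, and Foxp1 1, while Fezf2, Tbr1 and Tle4 held none. Of the 327, 10 (3.06%) lay at an end of a gene of another type, such as a long noncoding RNA, inside the member.

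Interior density, in peaks per 100 kb of gene away from its ends, was compared with that of genes between 0.5 and 2 times as long, since density depends on length. It was above the median of such genes in 7 of the 8, against 41.5% of 19170 protein-coding genes, and Foxp2 was the exception. For Fezf2 and Tbr1 the median of such genes was 0, so that any interior peak put them above it. Among the 6 others, 5 were above a median over 0. The 41.5% includes genes with a median of 0, and the share over genes with a median over 0 was not computed. Tle4, 1 of the 5, was above only 54.8% of genes of like length. The 7 members longer than 10 kb had a median of 14.2 peaks per 100 kb, against 7.57 over 13917 protein-coding genes longer than 10 kb. With Fezf2, a shorter gene, the median over all 8 was 21.6. Short genes allow few peaks, and the 2 interior peaks of Fezf2 and the 3 of Tbr1 already gave densities of 41.1 and 39.2. With end windows of 2500 bp, Fezf2 was no longer above its median.

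**Figure D3:**
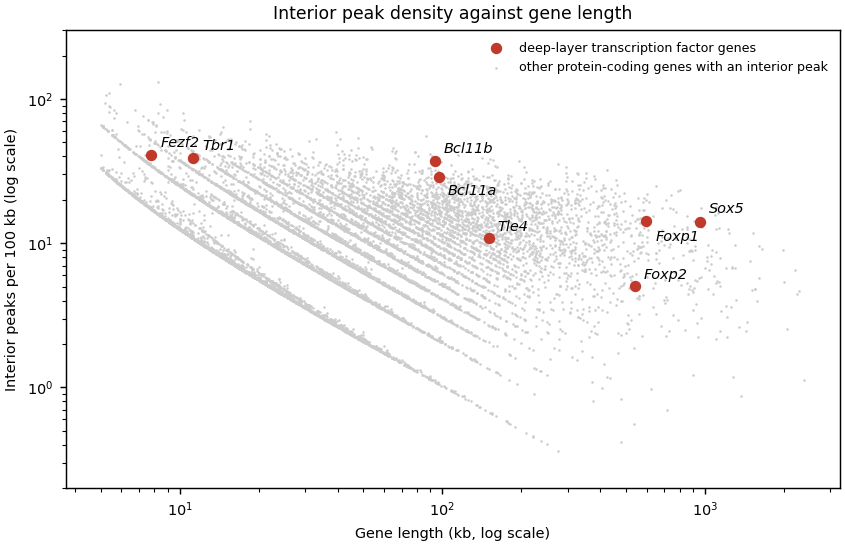
Interior peaks per 100 kb against gene length in kb (both axes log scale) for the 8 genes (red) and the other protein-coding genes with at least 1 interior peak (grey; the diagonal streaks are genes with 1, 2, 3 and more peaks). Bcl11b and Bcl11a lie near the top of the cloud at their length, Sox5 and Foxp1 above its middle, Tle4 close to it and Foxp2 below it.

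Bcl11b, which Fezf2 acts through in subcerebral neurons and which is needed for their axons to reach the spinal cord, stood furthest above other genes of its length in interior peaks. Its 93.7 kb (chromosome 12, 107910403 to 108004145) held 34 interior peaks, or 37.4 per 100 kb, against a median of 8.92 over 4122 genes of like length, a ratio of 4.19. This density was above that of 99.4% of them. The peaks were also wide, with a median of 480 bp. The widest were 1581 bp at 33.6 kb from the 5′ end (107969757 to 107971337), 1543 bp at 51.5 kb (107951852 to 107953394) and 1415 bp at 27.9 kb (107975569 to 107976983). Of its interior peaks, 9 were at least 1000 bp wide, down to 1025 bp. By that cut-off they exceeded the gene's own start peak of 785 bp, as did those of 863, 831 and 794 bp. The peaks were spread along the gene, with 14, 12 and 8 in its 3 equal parts from the 5′ side, and the longest stretch without one was 10.1 kb at the 3′ end. In all, 23.9% of the gene lay under peaks.

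Fezf2, the zinc-finger factor upstream of Bcl11b, is a short gene of 7.81 kb (chromosome 14, 12338992 to 12346803) and was covered over 47.2% of its length. Its interior peaks, of 740 and 803 bp, lay side by side 5.46 and 6.27 kb from the 5′ end. With the start and 3′ peaks, the longest stretch without a peak was 3.02 kb.

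Among the corticothalamic genes, Tbr1 (chromosome 2, 61802863 to 61814114) had interior peaks of 595, 390 and 240 bp, and 34.3% of the gene lay under peaks, most of it under the 2112 bp start peak. Sox5 is the longest member, at 954 kb (chromosome 6, 143828425 to 144782287), and had the most peaks, 134 in its interior. Its density of 14.1 per 100 kb was 1.78 times the median of 7.93 over 242 genes of like length, above 83.5% of them. Its widest interior peaks were 1801 bp at 573 kb from the 5′ end (144208681 to 144210481), 1546 bp at 329 kb (144452113 to 144453658) and 1514 bp at 118 kb (144663598 to 144665111). The first of these lay at an end of the noncoding gene Gm38531, and the densest 20 kb of the Sox5 locus held it and 8 others. The peaks thinned towards the 3′ side, with 55, 42 and 37 in the 3 equal parts, and the longest stretch without one was 40.5 kb.

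Tle4 (150 kb, chromosome 19, 14448072 to 14598183) was close to other genes of its length, with 16 interior peaks, or 10.9 per 100 kb, against a median of 9.88 over 2787 genes. The widest were 556, 504 and 469 bp, and 3.72% of the gene lay under peaks. Its peaks lay away from the start: 2, 7 and 7 in the 3 equal parts, and the longest stretch without a peak, 26.6 kb or 17.7% of the gene, began at the start peak itself.

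Foxp2 (541 kb, chromosome 6, 14901349 to 15441977) joined a wide end peak to a sparse interior. It had 27 interior peaks, or 5.01 per 100 kb, against a median of 9.46 over 601 genes of like length, a ratio of 0.53, and was above only 20.3% of them. Its peaks were not narrow, with a median of 446 bp. They lay mostly far from the end with the wide peak, with 5, 9 and 13 in the 3 equal parts counted from that end. The widest, of 1026 bp (15407991 to 15409016) and 1001 bp (15411344 to 15412344), lay 507 and 510 kb from it, and the next, of 755 bp, at 534 kb. The longest stretch without a peak was 88.5 kb, or 16.4% of the gene (15032537 to 15121057).

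Foxp1 and Foxp2 are close relatives of similar length on the same chromosome, and their interiors differed. Foxp1 (597 kb, chromosome 6, 98925342 to 99522746) had 84 interior peaks, or 14.2 per 100 kb, and Foxp2 had 27, or 5.01. The Foxp1 density was 1.57 times the median of 9.1 over 525 genes of like length and above 76.0% of them. Its peaks were evenly placed, with 27, 28 and 29 in the 3 equal parts, and were narrow, with a median of 366.5 bp. The widest, of 1218 bp, lay 37.1 kb from the 5′ end (99484995 to 99486212), at the edge of the gene's longest stretch without a peak (34.1 kb), followed by 891 bp at 296 kb and 860 bp at 331 kb. With 105 peaks against 31 in gene and flanks together, Foxp1 had more accessible sites in this list. Their widest single start peaks were near in width, 1731 and 1865 bp.

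The zinc-finger relatives Bcl11a and Bcl11b were nearer to each other. Bcl11a (97.0 kb, chromosome 11, 24076564 to 24173558) had 27 interior peaks, or 29.0 per 100 kb, 3.24 times the median of 8.95 over 4038 genes of like length and above 97.9% of them. Unlike those of Bcl11b, few were wide: 2 reached 1000 bp, at 1203 bp (24094759 to 24095961) and 1166 bp (24111136 to 24112301), and the next was 880 bp, with a median of 395 bp. They crowded towards the 5′ side, with 14, 5 and 8 in the 3 equal parts, and the longest stretch without one was 12.8 kb.

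**Figure D4:**
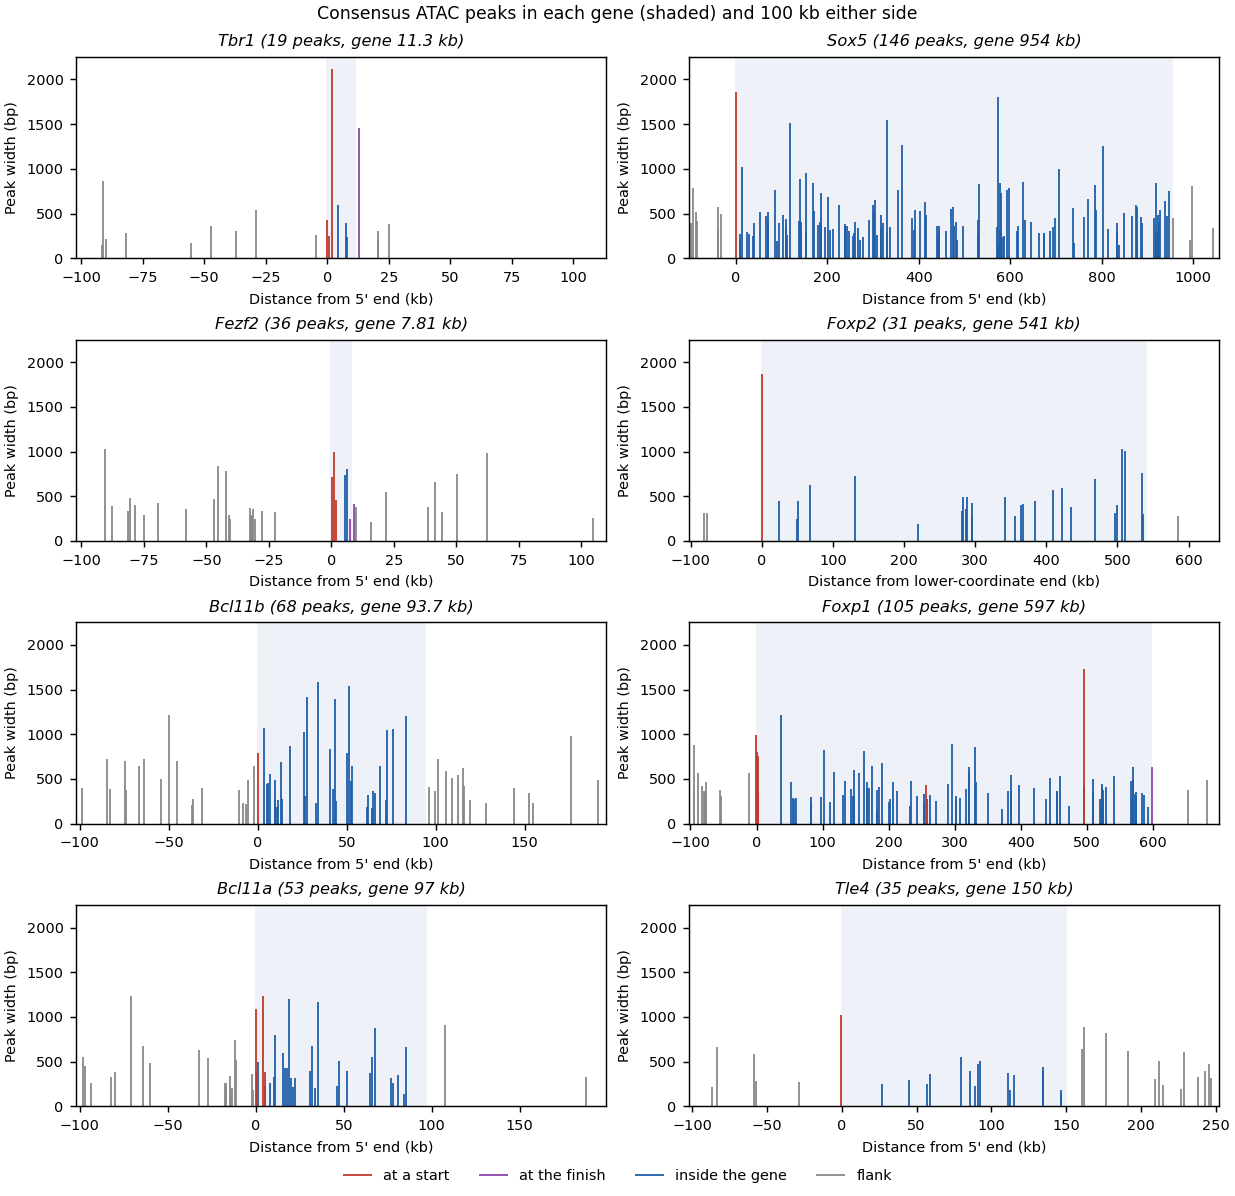
Each consensus peak in the 8 genes (shaded) and 100 kb on either side, at its distance in kb from the 5′ end (x axis; for Foxp2 from the lower-coordinate end) and with its width in bp as height. Red lines are peaks at a start, purple at the 3′ end, blue inside the gene and grey in the flanks. Bcl11b is filled along its length with 9 interior peaks of at least 1000 bp, and Foxp2 has a stretch of 88.5 kb without a peak.

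In the flanks, 137 of the 142 peaks (96.5%, exact Clopper-Pearson 95% interval 92.0 to 98.8%, counting error only) lay away from the ends of other protein-coding genes, against 75.4% of flanking peaks summed over all protein-coding genes. The interval takes the 142 peaks as independent, though they lie in 8 loci chosen by name, so it does not measure a difference from 75.4%. In 5 of the 8 no other protein-coding gene lay within 100 kb, against 5.40% of protein-coding genes. All flanking peaks of those 5 were therefore among the 137, an outcome fixed in advance. Of the 137, 87 lay in no other gene, 30 inside another protein-coding gene and 20 at or in a gene of another type. The flanking peaks had a median width of 383 bp, and 3 (2.11%) were at least 1000 bp. Flanks had a median of 8.08 peaks per 100 kb over the 8 genes, against 10.1 over all protein-coding genes. In all 8 genes the interior was denser than the flanks, against 37.1% of 13917 protein-coding genes longer than 10 kb, a length that 7 of the 8 exceed. The ratio of interior to flank density was 6.46 at Tbr1, 3.31 at Foxp2, 2.8 at Fezf2, 2.61 at Bcl11a, 2.54 at Sox5, 2.24 at Bcl11b, 2.01 at Foxp1 and 1.2 at Tle4. The Tbr1 and Fezf2 ratios rest on 3 and 2 interior peaks.

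**Figure D5:**
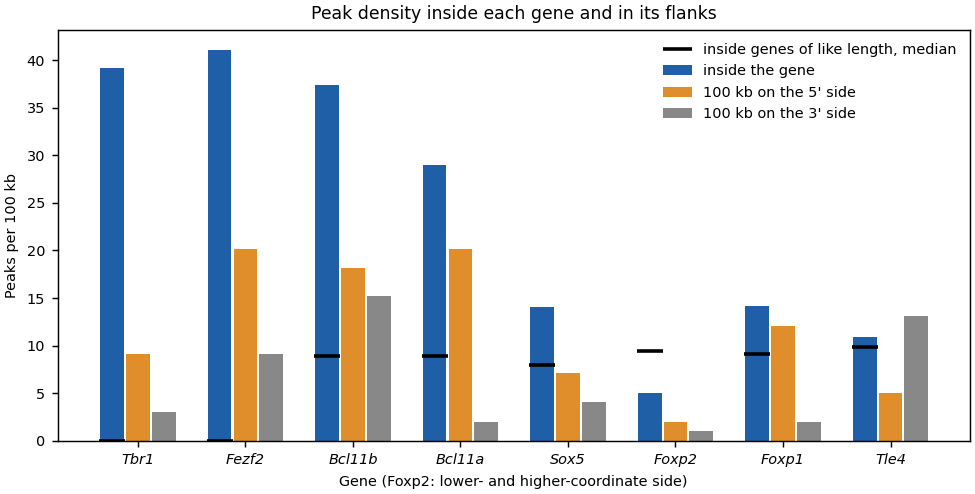
Peaks per 100 kb inside each gene (blue), in the 100 kb on its 5′ side (orange) and on its 3′ side (grey), with the median density inside genes of like length (black line, at 0 for Fezf2 and Tbr1). The blue bar is the highest of the 3 in 7 genes, and at Tle4 the 3′ flank is higher.

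In 6 of the 7 genes with a listed strand the 5′ flank held more peaks than the 3′ flank, against 39.5% of protein-coding genes with a strand. Summed over the 7, 91 lay on the 5′ side and 48 on the 3′ side. The 5′ side thus held 65.5% of their flanking peaks, against 48.2% over all such protein-coding genes, with no test. The lean was strongest at Bcl11a, with 20 upstream and 2 downstream, and at Foxp1, with 12 and 2. Tle4 went the other way, with 5 upstream and 13 downstream. The downstream peaks of Tle4 included 888, 823 and 640 bp, the first 2 of them in the noncoding gene Gm8630.

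At Bcl11a the upstream peaks formed a cluster that ran into the gene. The densest 20 kb of the locus, with peak centres from -17.3 to 1.36 kb relative to the outer end, held 13 peaks, and 12 of the 20 upstream peaks lay in A830031A19Rik, which ends 69 bp from Bcl11a. The widest flanking peak of all 8 loci, at 1230 bp (chromosome 11, 24004963 to 24006192), lay 70.4 kb upstream of Bcl11a in no other gene. The next widest there were 907 bp at 10.2 kb downstream and 741 bp at 11.5 kb upstream.

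Bcl11b had the densest flanks of the 8, with 18 peaks upstream and 15 downstream, or 16.7 per 100 kb, above 81.8% of other protein-coding genes. No other protein-coding gene lay within 100 kb, and all 33 flanking peaks were in no other gene. The widest were 1211 bp at 49.5 kb upstream (chromosome 12, 108053637 to 108054847) and 976 bp at 81.6 kb downstream (107827836 to 107828811), followed by 728 bp at 84.5 kb upstream. The densest 20 kb held 13 peaks, centred from -5.29 to 13.8 kb relative to the 5′ end.

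The upstream peaks of Fezf2 lay in a neighbour. Of 20, 19 were inside Cadps, a gene of vesicle exocytosis that has its nearer end 25756 bp away, and 11 of them stood within 20 kb, centred from -46.9 to -27.6 kb relative to the Fezf2 5′ end. Among these were peaks of 841 and 785 bp, and the widest in Cadps, of 1033 bp (chromosome 14, 12436809 to 12437841), lay 90.0 kb upstream. The downstream peaks numbered 9, of which 6 were at or in 3830406C13Rik, the widest with 989 bp at that gene's end. Which gene such peaks belong to cannot be told from the list.

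Tbr1 was similar in that all 9 upstream peaks lay in Psmd14, a proteasome subunit gene whose nearer end is 2486 bp away: 2 at its far end, the wider with 866 bp, and 7 inside it. Downstream there were 3, of 307, 204 and 383 bp, at 9.06, 9.43 and 13.6 kb beyond the gene. With 6.06 peaks per 100 kb its flanks were sparser than those of most genes, above 27.4% of them.

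Sox5 and Foxp2 lay in flanks with few peaks. Foxp1 was sparse on its 3′ side alone, with 2.02 peaks per 100 kb against 12.1 on its 5′ side. Sox5 had 7 upstream and 4 downstream, the widest of 807 and 787 bp. Foxp1 had most of its upstream peaks far out, with 6 between 76.4 and 81.9 kb from the gene and 3 more to 94.7 kb. The widest, of 875 bp, was among the last. These peaks lay nearer to the protein-coding gene Eif4e3, whose nearer end is 99132 bp from Foxp1 on that side. The lean of 12 upstream against 2 downstream peaks can therefore not be assigned to Foxp1 alone. Foxp2 had 3 on both sides together, of 316, 316 and 284 bp, none closer than 43.9 kb to the gene, and only 10.6% of other protein-coding genes had sparser flanks. Beyond its wide end peak, the next peak of the list lay 76.2 kb outside the gene on one side and 23.9 kb into it on the other.

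Related genes were described in the same way, with lists chosen with earlier results known. Of 10 paralogues of the members, 9 had a start peak, against 70.0% of all protein-coding genes. In 7 of them the widest was at least 1000 bp, against 45.6%. The widest were at Sox13 (1893 bp), Foxp4 (1760 bp) and Sox6 (1393 bp), and Foxp3, the forkhead factor of regulatory T cells, had none. The paralogues had a median of 8.24 interior peaks per 100 kb. All 4 paralogues that had no interior peak, Fezf1, Eomes, Tle2 and Tbx21, are shorter than 20 kb. Eomes, the T-box factor of the intermediate progenitors that precede Tbr1, had a start peak of 1041 bp, and Fezf1 had one of 1023 bp.

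All 16 other genes of deep-layer neurons had a start peak, against 70.0% of all protein-coding genes. In 9 of them the widest was at least 1000 bp, against 45.6%. Over the 16 the medians were 1135 bp and 15.2 interior peaks per 100 kb. The widest were at Tshz3 (2659 bp), a zinc-finger factor of corticofugal neurons, Tox (2030 bp) and Zfpm2 (1947 bp), which encodes the GATA cofactor FOG2. Of 14 partner and target genes, 13 had one, 11 of at least 1000 bp, with a median of 1404 bp and of 14.2 interior peaks per 100 kb, the same as in the 7 members longer than 10 kb. The widest were at Nfib (2350 bp), the histone deacetylase gene Hdac1 (2158 bp) and Reln (2135 bp), the gene of the layering signal reelin that Tbr1 activates in early-born neurons. Tox, Zfpm2, Nfib and Hdac1 have no listed strand, so their start peaks may lie at the 3′ end. The median of 1482.5 bp over the 8 members was above those of the 3 lists, 1404, 1135 and, for the paralogues, 1050 bp, with genes without a start peak counted at 0, and no test of that difference was made. With the outermost end alone, the members' median was 1052 bp, below 1404 and 1135 bp, though the lists were not recomputed in that setting. Over the 7 members with a listed strand it was 1234 bp, below the 1404 bp of the partner and target genes.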

How the data were processed

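ATAC-seq was made from 18 samples, read as pairs per the labels. The authors deposited 1 consensus peak list, in which each line gives coordinates, a name and a score, in the build mm10 per the submitters' processing notes, which also name MACS2, deepTools and MultiQC without versions. Peaks are named after MSPC, which merges calls of replicates, per the deposited list. The aligner, the handling of the transposase offset and of duplicates, the thresholds and the samples behind the consensus were not given in the sources used here, so depth and its precision are unknown. The deposited score is at its ceiling of 1000 for nearly all peaks and ranked nothing.

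Genes came from a RefSeq table (49997 genes, 49595 used, GRCm38.p6), without those on scaffolds and the mitochondrial genome. It holds no strand, which came from the RefSeq promoters. A peak of any overlap was placed at a start (1000 bp), else the 3′ end, else inside, else the flank (100 kb). No test was run, since no values per sample were used. The 8 genes, the lists and the rule for naming (all 8, the 3 widest interior and flanking peaks, the 3 widest of each list and up to 3 with none) were chosen with earlier results of these data known. Some genes of the lists are not reported here by name. Code in Python 3.11.15 (pandas 2.3.3, numpy 2.4.6, matplotlib 3.10.9, scipy 1.17.1) was tested on simulated peaks. Alternatives were end windows of 500 and 2500 bp, the end base itself, peaks of at least 500 bp, midpoints, flanks of 50 and 200 kb, other length references, flank sequence outside genes and, added after the data were seen, the outermost end alone and genes with a listed strand.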

Additional observations from a re-analysis of the deposited data

How the results depend on the processing

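Of 35 values recomputed under 11 settings, 29 stayed within the limits set: 1.5 times for a count, the exact interval for the share of flanking peaks, no change for the median. The limit for a count is loose for counts of at most 8 genes, where a fall from 7 to 5 stayed within it. With peaks of at least 500 bp, 98 interior and 45 flanking peaks were left of 327 and 142, interiors were denser than flanks in 7 genes (not Tle4), and 5 (not Foxp1, Foxp2 or Tle4) were above the median of genes of like length. With end windows of 2500 bp these counts were 7 (not Fezf2) and 6 (not Fezf2 or Foxp2). Flanks of 50 and 200 kb held 72 and 315 peaks. The median of the widest start peaks was 1052 bp with the outermost end alone and 1234 bp for the 7 genes with a listed strand, both chosen after the data were seen, against 1482.5 bp. That all 8 had a start peak held under each setting that kept the 8. End windows of 2500 bp, which hold the narrower ones, could not have changed that count. Peaks of at least 500 bp could change neither it nor the median, since the narrowest of the 8 widest start peaks was 785 bp. Those values among the 29 were thus fixed in advance and give no support. No paired analysis was possible because the list holds no value per sample. How many samples share a peak, its height and its group are unknown, and a width reflects the merging of calls as well as the site.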
